A study of Homo sapiens with 47 samples.

Results

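A list gave the genes described here by name and not by their values, though it was set with earlier results of these data known. It holds 40 named genes of glycolysis and of the response to low oxygen, out of 25739 genes measured. Of these, 19 encode glycolytic enzymes or the kinases that tune them, 5 encode transporters of glucose or lactate or the pyruvate switch PDK1, 15 are targets of the hypoxia inducible factors (HIF), and 1 is the oxygen-regulated subunit HIF1A. Each of the 40 genes had 1 row of values. Single-cell RNA-seq was carried out on 37 circulating tumor cells (CTC) and on 6 cells from culture, all of the line MDA-MB-231-LM2 (LM2), a lung-tropic derivative of a human triple-negative breast cancer line. For the CTCs, LM2 cells carrying GFP were placed in the mammary fat pad of immunodeficient NSG mice a few weeks of age, and blood was drawn once tumors had grown. CTCs were enriched by size on a Parsortix cassette, set apart from leukocytes by the absence of CD45, found by GFP, and picked singly, so that cells small enough to pass the cassette or without GFP are not represented. There were 2 CTCs from mouse 5541, 4 from 5542, 10 from 5545, 17 from 5546 and 4 from 5549.

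Glycolysis splits glucose into pyruvate in the cytosol, and lactate dehydrogenase turns pyruvate into lactate when it is not burned in mitochondria. Tumor cells commonly run this pathway at a high rate even with oxygen present, and triple-negative breast cancer lines are known for it. When oxygen is scarce, HIF1A is no longer hydroxylated by the EGLN enzymes and destroyed, pairs with ARNT, and binds short DNA elements with the core letters ACGTG or GCGTG near its targets, many of which encode glycolytic enzymes, glucose transporters, pH regulators and secreted vessel growth factors. HIF1A is regulated largely at the protein level, which RNA-seq does not measure.

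Values are normalized counts, the reads of a gene divided by the size factor of its cell, and the mean of a mouse is the mean over its CTCs. Mice served as replicates, whereas the 6 cultured cells count as 1 sample, so their difference from CTCs has no replicate check. A gene met the size rule when each of the 5 mouse means lay at least 2-fold, in 1 direction, from the culture mean after 1 was added to both, and the larger of the means was at least 8. This rule is a description and not a test. Reads on genes ranged from 469614 to 2041333 per CTC and from 776949 to 1186197 per cultured cell. Scaling shifted all genes. The sum of normalized counts was 442223 to 1169170 per CTC and 1162000 to 1783220 per cultured cell, and the median log2 ratio of CTCs over culture was -1.20 over all 9164 genes tested, against -0.45 when each cell was scaled to the same total of reads (CPM) and -0.03 with TMM factors. Ratios are therefore given beside that of all genes. Values are relative to the other RNA of the same cell, and the amount of RNA per cell was not measured. The CTC 5545-6 stood apart with 2313 genes detected, the lowest of all cells. LM2 line markers, VIM, LGALS1 and AXL foremost, took 0.774% to 4.64% of the reads of each CTC, and all 15 had reads in CTCs. In cultured cells they took 1.00% to 1.66%, and 35 CTCs lay above that range and 1 below it. Erythroid markers were at 0 in every cultured cell and took up to 1.59% of the reads of a CTC. Of these markers, 10 of the 10 measured had reads in some CTC. Neutrophil markers were also at 0 in every cultured cell, and had reads in 30 CTCs, up to 0.0953%. Leukocyte markers took up to 0.156% in CTCs and 0.0310% in culture, and platelet markers up to 0.0419% and 0.0241%. Reads were aligned to the human genome, and the species of origin of these marker reads was not tested.

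Of the 40 genes, 10 met the size rule as lower in CTCs than in culture, and none as higher. They are the phosphofructokinase genes PFKL, PFKM and PFKP, the kinase gene PFKFB4, the glucose transporter SLC2A1, the lactate exporter SLC16A3, and the HIF targets VEGFA, ADM, EGLN3 and ERO1A. These are 10 of the 37 members that reached the minimum, beside 25.1% of all genes tested called lower and 0.262% called higher, so the members were called about as often as genes at large. HK2, SLC16A1 and CA9 did not reach the minimum. With CPM, PFKP, ADM and EGLN3 met the rule as lower and no member as higher, while 8.72% of 8777 genes were called lower and 0.695% higher. The median log2 ratio was -1.14 over the 37 members, near that of all genes. The edgeR quasi-likelihood test with the reads of each mouse pooled and the cultured cells pooled as 1 sample called none of 39 members at an adjusted p under 0.05, and none of 13813 genes. GAPDH was the 1 member among 241 genes with an unadjusted p under 0.05 (log2 fold change 0.93 on the TMM scale, higher in CTCs, p = 0.0361 in edgeR). In this fit the median log2 fold change of all genes was 0.31. The fit takes the spread between mice as that of cultures, which was not measured.

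**Figure D1:**
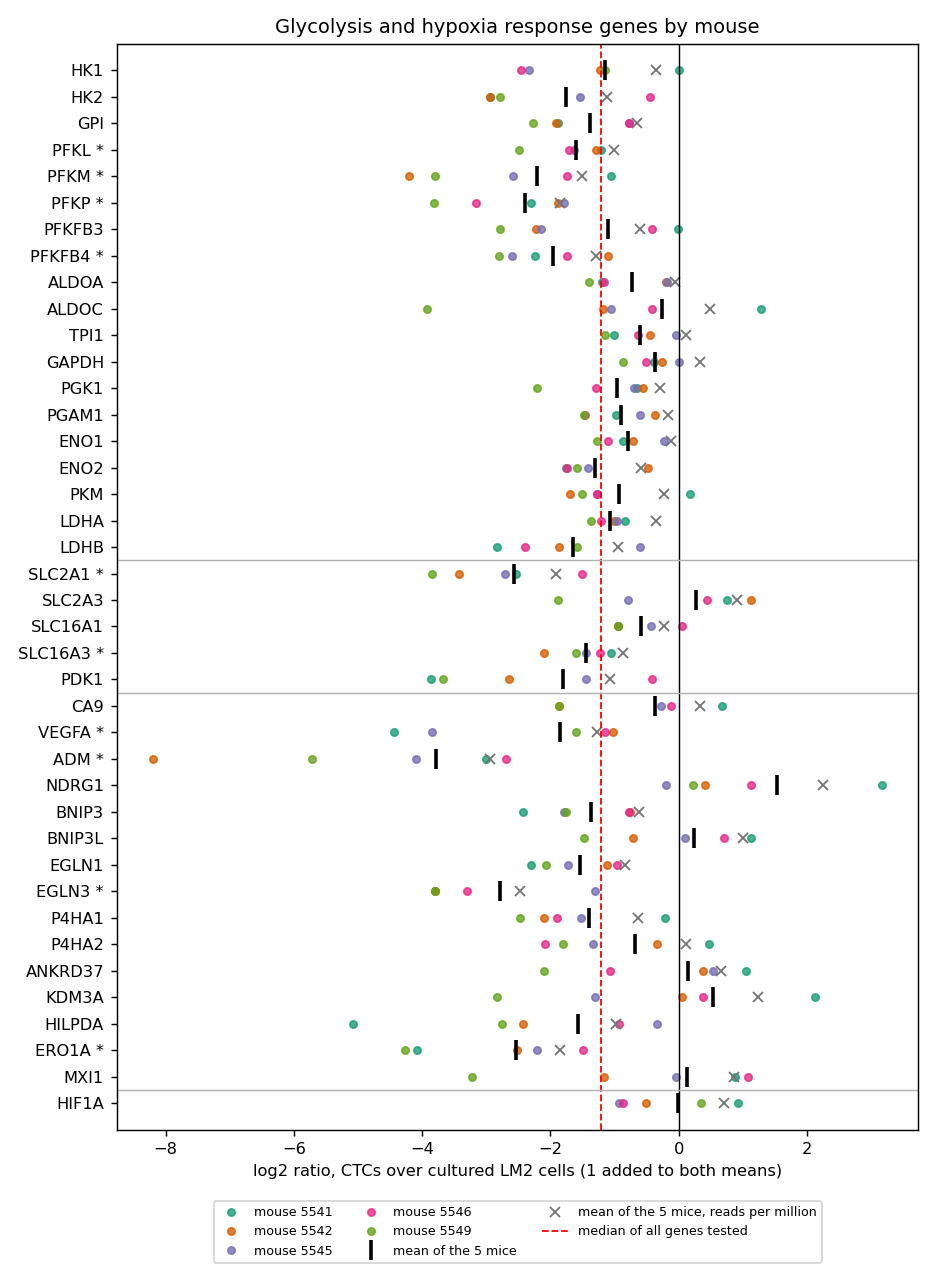
Log2 ratio of the mean of each mouse's CTCs over the mean of the 6 cultured cells, with 1 added to both, for the 40 genes grouped as glycolytic enzymes, transporters with PDK1, HIF targets and HIF1A. Colored points are mice, black bars the ratio of the mean of the 5 mouse means, gray crosses the same from CPM, the dashed line the median of all genes tested (-1.20), and asterisks the 10 genes that met the size rule.

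The 18 glycolytic enzymes that reached the minimum all lay below culture on the deposited scale, with a median log2 ratio of -1.08 and a range from -2.40 to -0.26. Relative to all genes, 11 of the 18 lay above the all-gene median and 7 below it. Abundant genes had higher ratios as a class, with a median of -0.56 over the 215 genes with a mean of at least 1000, and of the 7 members in that class GAPDH lay above the class median and the other 6 below it on all 3 scales. The direction against 0 depended on the scale, since 15 of the 18 lay below 0 and 3 above it with CPM, and the median was 0.03 with TMM factors. On each of these scales PFKP was the lowest of the 18, and GAPDH lay above the other enzymes with a mean of at least 1000 normalized counts. As CPM per kb of exon, the 4 highest members in CTCs were GAPDH at 5896 ± 808 (SD, n = 5 mice), TPI1 at 1370 ± 362, LDHA at 1004 ± 107 and ENO1 at 879 ± 210. The same 4 led in culture. Length is that of all annotated exons of a gene. Without it the order after GAPDH in CTCs was LDHA, ENO1 and TPI1, with 6052, 4586 and 3698 CPM.

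GAPDH, glyceraldehyde 3-phosphate dehydrogenase, had the highest level per kb of all members. Its mean was 11604 normalized counts in mouse 5541, 12670 in 5542, 15152 in 5545, 10663 in 5546 and 8348 in 5549. Cultured cells had 10222 at the lowest, a median of 15938 and 18934 at the highest. Mouse 5549 lay below every cultured cell and the other 4 mice lay within their range. The log2 ratio was -0.38 ± 0.32 (SD, n = 5 mice), and it was 0.33 ± 0.20 with CPM. LDHA, which makes lactate from pyruvate, was more even among mice than any other member that reached the minimum. Its mouse means were 5861, 5166, 5340, 4529 and 4064 in the order of mouse 5541 to 5549, with a log2 ratio of -1.06 ± 0.21. Cultured cells had 5814 to 13067 with a median of 11650, and 4 of the 5 mice lay below all of them. With CPM the log2 ratio was -0.35 ± 0.15.

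The 250 bases before an annotated start were searched in RefSeq (GRCh38.p14) for ACGTG and GCGTG on both strands. ACGTG was present for 21 of the 34 members with an entry (61.8%) and for 21.7% of 27305 genes, and either word for 28 of the 34 (82.4%) and for 47.4% of all genes. Genes with more than 1 start were counted once if any window matched, and members are in part genes known as HIF targets, so this is a description of the list. LDHA is shown because its window is the one with the most ACGTG among the 4 printed here. The stretch outside annotated exons, chr11:18394313-18394559 on the plus strand, holds 5 matches to ACGTG that begin 185, 184, 87, 86 and 73 bases before the start. Capitals mark matches on either strand, and the palindrome CACGTG counts as a match on each strand.
LDHA: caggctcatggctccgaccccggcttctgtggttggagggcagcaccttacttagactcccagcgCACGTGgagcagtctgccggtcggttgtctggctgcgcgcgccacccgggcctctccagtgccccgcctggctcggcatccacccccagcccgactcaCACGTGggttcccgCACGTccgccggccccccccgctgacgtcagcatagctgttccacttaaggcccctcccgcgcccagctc

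PFKP, PFKL and PFKM encode the platelet, liver and muscle forms of phosphofructokinase, the committed step of glycolysis. PFKP means were 128, 172, 183, 70.1 and 44.4 in mouse 5541, 5542, 5545, 5546 and 5549. Cultured cells had 501 to 869 with a median of 571, and every mouse lay below every cultured cell, as did 36 of the 37 CTCs taken singly. Such separation of all 5 mouse means below culture was seen in 9.12% of all genes tested, and among the 40 members in PFKP, BNIP3 and ERO1A, while 0.284% of genes and no member lay wholly above. PFKP was 5.27-fold lower in CTCs (log2 ratio -2.40 ± 0.87), and its log2 ratio was -1.85 ± 0.67 with CPM. The highest single CTC, 5545-15, had 807.

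PFKL had mouse means of 37.9, 35.97, 27.9, 26.5 and 15.0 in mouse 5541 to 5549 against a culture mean of 88.9 with a range from 13.7 to 179, a log2 ratio of -1.60 ± 0.51. PFKM means were 27.8, 2.22, 8.95, 16.8 and 3.27 against 58.5 in culture with a range from 2.51 to 118, a log2 ratio of -2.22 ± 1.34. All 5 mouse means of PFKL and 4 of the 5 of PFKM lay within the range of the cultured cells. PFKFB4, whose product sets the level of the phosphofructokinase activator fructose 2,6-bisphosphate, had means of 1.73, 4.96, 1.11, 2.84 and 0.833 against 11.8 in culture, and reads in 12 of 37 CTCs and 4 of 6 cultured cells. None of PFKL, PFKM and PFKFB4 met the rule with CPM. Each call also rested on single cultured cells, since PFKL did not meet the rule without LM-10 (log2 ratio -1.28), PFKM without LM-1, LM-P3 or LM-P4 (-1.96, -2.11 and -1.89) and PFKFB4 without LM-3 or LM-P4 (-1.64 and -1.78).

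The other enzymes did not meet the rule. Log2 ratios were -1.14 for HK1 and -1.75 for HK2, the hexokinases that trap glucose, -1.38 for the isomerase GPI and -1.10 for PFKFB3. They were -0.73 for ALDOA and -0.26 for ALDOC, the aldolases, and -0.60 for TPI1, which interconverts the triose phosphates. In the lower part of the pathway they were -0.96 for PGK1, which makes ATP, -0.90 for the mutase PGAM1, -0.79 for ENO1 and -1.31 for ENO2, the enolases, -0.93 for the pyruvate kinase PKM and -1.65 for LDHB. Exons of other genes cover 54.2% of the exonic bases of ALDOA and 33.4% of those of LDHB, and reads were counted without strand, so part of their values cannot be told from their neighbors. HK2 had reads in 10 of 37 CTCs and ALDOC in 14, while GPI, ALDOA, TPI1, GAPDH, PGK1, ENO1, PKM and LDHA, 8 in all, had reads in every CTC.

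**Figure D2:**
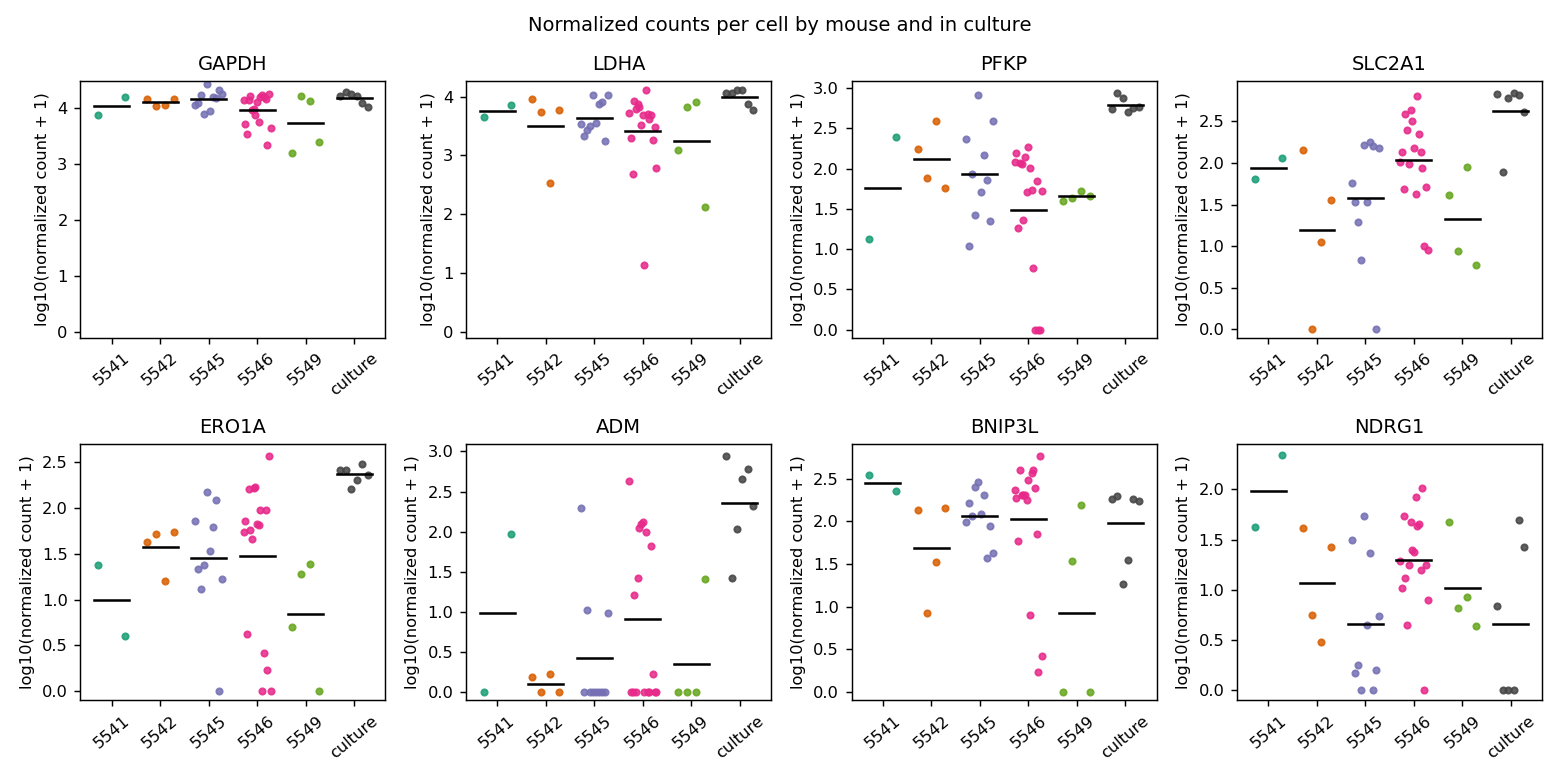
Normalized count of 8 genes in each cell, as log10(value + 1), by mouse and in culture. Each point is 1 cell and each bar the mean of the plotted values of its group, and 36 of 37 CTCs for PFKP and 33 for ERO1A lie below every cultured cell, against 6 for BNIP3L and 0 for NDRG1.

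A comparison that does not depend on scaling is how reads on the 19 enzymes were divided among them. GAPDH took 39.2%, 43.8%, 43.2%, 45.3% and 38.8% of glycolytic reads in mouse 5541, 5542, 5545, 5546 and 5549. The cultured cells had 31.4% to 33.3%. All 5 mice lay above all cultured cells, and so did 36 of the 37 CTCs. The exception was 5549-2, the CTC with the lowest value, at 21.6%. Expressed per glycolytic read, 5 of 9164 genes (0.0546%) had at least 36 CTCs above every cultured cell, and 1.23% had all 5 mouse means above. The limit of 36 is the count seen for GAPDH, which meets it by construction. GAPDH reads are also part of the glycolytic total, and CTCs of a mouse are not replicates. GAPDH has 55 annotated pseudogene copies in the table, which took 0.318% to 1.88% of the reads of the family in mice and 0.180% to 0.345% in cultured cells. Uniquely mapped reads alone were counted, so reads shared with copies were lost to an extent that was not tested.

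The parts of LDHB and PFKP were smaller in every mouse than in any cultured cell, as they were for 1.62% of all genes per glycolytic read. LDHB took 0.964%, 1.98%, 3.78%, 1.77% and 3.76% of glycolytic reads in the 5 mice and 3.89% to 5.45% in cultured cells. PFKP took 0.355% to 0.667% in mice and 1.04% to 1.85% in cultured cells. LDHA took 16.9% ± 2.22 (SD, n = 5 mice) and 22.2% in culture, with 4 of the 5 mice below all cultured cells. ENO1 took 14.4% in both, and TPI1 11.1% ± 1.87 and 9.77%. Individual CTCs ranged more widely than cultured cells, with LDHA from 0.166% to 36.1% of glycolytic reads in CTCs and from 18.6% to 27.2% in culture.

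**Figure D3:**
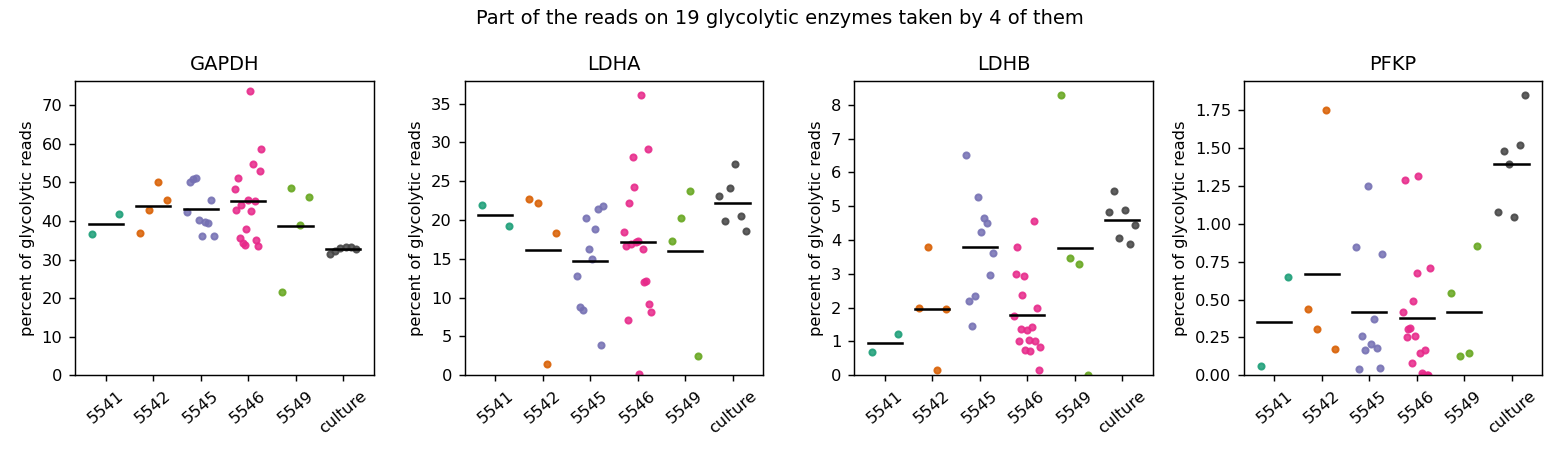
Percent of the reads on the 19 glycolytic enzymes that fell on GAPDH, LDHA, LDHB and PFKP, by mouse and in culture. Each point is 1 cell and each bar the mean of its group, and 36 of 37 CTCs lie above all cultured cells for GAPDH.

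Isozyme balance was taken from reads per kb of exon summed per mouse. LDHA made up 79.0% ± 9.91 (SD, n = 5 mice) of the lactate dehydrogenase pair in CTCs and 70.9% in the summed culture, where cells ranged from 64.3% to 74.5%. Mouse 5545 had 64.8% and mouse 5549 74.4%, within that range, and the other 3 mice lay above it at 80.8% to 90.7%. Without length correction the LDHA share was 88.1% in CTCs and 83.1% in culture, so its level depends on the exon lengths used. PFKP remained the main phosphofructokinase, at 73.4% ± 8.90 in CTCs and 82.4% in culture. HK1 made up 96.8% ± 5.76 of the hexokinase pair and ENO1 97.8% ± 1.00 of the enolase pair, with 96.0% and 97.1% in culture, so these pairs differed by less than the spread between mice. BNIP3 made up 51.4% ± 20.9 of its pair with BNIP3L in CTCs and 75.9% in culture, and 23 of 36 CTCs with reads on the pair lay below every cultured cell.

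Among the transporters, SLC2A1, the main glucose importer GLUT1, met the rule as lower. Its means were 88.9, 47.3, 79.2, 183 and 35.1 in mouse 5541 to 5549 against a culture mean of 520. Of the cultured cells, LM-10 had 77.6 and the other 5 had 415 to 696. Every mouse mean lay below those 5 cells, and mice 5542 and 5549 also below LM-10, while the highest CTC, 5546-s2, had 637. SLC2A1 was 5.95-fold lower (log2 ratio -2.57 ± 0.90). With CPM the log2 ratio was -1.91 ± 0.88, and the rule was not met. The window of SLC2A1 is shown because it holds neither word although the gene is a known HIF target, which says only that these letters are not in this stretch. It lies at chr1:42958894-42959048 on the minus strand, outside annotated exons.
SLC2A1: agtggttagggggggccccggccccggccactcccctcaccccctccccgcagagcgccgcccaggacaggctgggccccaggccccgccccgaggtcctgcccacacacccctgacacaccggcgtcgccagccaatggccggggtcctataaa

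SLC16A3, the lactate exporter MCT4, had means of 189, 90.8, 144, 168 and 129, against 394 in culture with a range from 92.6 to 1027. It met the rule at 2.72-fold lower (log2 ratio -1.44 ± 0.40), and did not with CPM, with medians over cells or with the mean of log2 values. It also did not without the cultured cell LM-2 (-1.30) or LM-3 (-0.89). SLC2A3, the high-affinity glucose transporter GLUT3, had a log2 ratio of 0.28 ± 1.24 and made up 15.7% ± 10.4 of the glucose transporter pair in CTCs against 2.48% in culture. Mouse shares ran from 7.63% to 32.1% and cultured cells from 0% to 6.83%, but 15 of the 36 CTCs with reads on the pair lay above the cultured cells and the median CTC, at 3.40%, lay within their range. SLC2A3 had means of 23.1, 30.1, 7.26, 18.4 and 2.89, and in mouse 5542 the single CTC 5542-4, at 113, held most of it. PDK1, the kinase that keeps pyruvate out of mitochondria, had means from 0 to 9.94 against 13.5 in culture, and reads in 15 of 37 CTCs. SLC16A1, the transporter MCT1, was near 0 in both, with a CTC mean of 0.290.

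The HIF targets did not move as a block. Of the 14 that reached the minimum, 9 had a log2 ratio below 0 and 5 above it, with a median of -1.38 and a range from -3.79 to 1.54. Relative to all genes 8 lay below the median and 6 above. With CPM 7 lay below 0 and 6 above, and the median with TMM factors was 0.25. The 4 genes that met the rule encode secreted factors, an oxygen sensor and an oxidase of the endoplasmic reticulum.

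ADM, the secreted vasodilator adrenomedullin, had the lowest ratio of all members. Its means were 46.8, 0.304, 21.4, 58.4 and 6.24 in mouse 5541 to 5549. Cultured cells had 25.9 at the lowest, a median of 330 and 887 at the highest. ADM had reads in 16 of 37 CTCs (43.2%, exact 95% interval 27.1% to 60.5%) and in all 6 cultured cells, and 29 CTCs lay below every cultured cell. It was 13.8-fold lower (log2 ratio -3.79 ± 2.27, and -2.95 ± 2.42 with CPM). Within mice it was uneven, since CTC 5546-c1 had 425 and the median CTC had 0. The ADM window is shown as that of the member with the lowest ratio. Outside annotated exons it spans chr11:10304878-10305072 on the plus strand, with 1 GCGTG that begins 101 bases before the start and no ACGTG.
ADM: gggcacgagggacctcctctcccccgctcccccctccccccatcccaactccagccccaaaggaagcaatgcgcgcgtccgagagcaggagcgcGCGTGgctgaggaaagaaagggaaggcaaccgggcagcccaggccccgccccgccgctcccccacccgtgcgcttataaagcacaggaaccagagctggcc

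ERO1A, the oxidase that drives disulfide bonds in the endoplasmic reticulum, had means of 13.0, 40.5, 50.6, 83.4 and 11.3. Cultured cells had 159 to 305 with a median of 244, and every mouse and 33 of the 37 CTCs lay below all of them. It was 5.81-fold lower (log2 ratio -2.54 ± 1.21), with -1.85 ± 1.12 for CPM, where the rule was not met. VEGFA, the vessel growth factor, had means of 0.281, 12.6, 0.930, 11.5 and 8.08 against 26.6 in culture, and EGLN3, a prolyl hydroxylase that senses oxygen, had 0, 0, 4.60, 0.406 and 0 against 12.9. Both were sparse. EGLN3 had reads in 3 of 37 CTCs and 4 of 6 cultured cells, 1 of which, LM-3, had 58.8, and VEGFA in 19 of 37 and 5 of 6. The highest mouse mean of either gene was 12.6 normalized counts, so their ratios rest on few reads. EGLN3 did not meet the rule without LM-3 (log2 ratio -1.22), nor VEGFA without LM-P3 or LM-P4 (-1.34 and -1.60).

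BNIP3 and BNIP3L encode related receptors that send mitochondria to autophagy. They had the highest levels of the HIF targets in CTCs, at 45.4 ± 21.3 and 44.9 ± 29.0 CPM per kb (SD over the 5 mice). Without length their order was reversed, at 184 and 186 CPM. BNIP3 means were 73.3, 235, 116, 232 and 117 against 245 to 726 in cultured cells, so every mouse lay below every cultured cell. The rule was still not met, since mice 5542 and 5546 were less than 2-fold lower (log2 ratio -1.36 ± 0.72 over the 5 mice). BNIP3L means were 287, 79.0, 140, 214 and 46.4 against 130 in culture with a range from 17.6 to 195, a log2 ratio of 0.23 ± 1.06, and 15 CTCs lay above every cultured cell. BNIP3L is also abundant in maturing red cells. Its Spearman correlation with the share of erythroid reads was -0.11 over the 37 CTCs, 0.50 over the 10 of mouse 5545 and -0.28 over the 17 of mouse 5546. The part of red cell RNA in its values was not tested. The BNIP3 window, shown for its run of both words, lies at chr10:131981968-131982173 on the minus strand with 2 ACGTG and 4 GCGTG between 143 and 104 bases before the start.
BNIP3: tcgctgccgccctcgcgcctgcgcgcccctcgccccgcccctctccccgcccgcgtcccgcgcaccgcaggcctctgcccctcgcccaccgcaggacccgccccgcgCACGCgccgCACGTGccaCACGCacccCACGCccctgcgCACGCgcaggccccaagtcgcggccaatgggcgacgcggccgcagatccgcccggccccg

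NDRG1, a stress-response gene induced by hypoxia, was singled out after its values were seen, because its log2 ratio of 1.54 ± 1.33 was the highest of the members. Its means were 129, 18.1, 11.5, 30.4 and 15.8 in mouse 5541 to 5549. Of the cultured cells, the 3 with the fewest genes detected had 0. Those with more genes had 5.97 (LM-1), 25.8 (LM-P4) and 48.7 (LM-P3). NDRG1 had reads in 34 of 37 CTCs (91.9%, exact 95% interval 78.1% to 98.3%), and in 31 of 37 CTCs and 3 of 6 cultured cells after thinning to equal depth. Detection in at least 90% of CTCs and at most 50% of cultured cells, limits also set after values were seen, was found in 7 of 9164 genes (0.0764%), which include the hemoglobin genes HBB and HBD. Mouse means did not separate from culture, since 1 of 5 lay above the highest cultured cell, and mouse 5545 had a log2 ratio of -0.20. The ratio rests largely on mouse 5541, with 2 CTCs, and was 0.47 without it. Without the cultured cell LM-P3 it was 2.51. Direction was the same with CPM (2.25 ± 1.41) and TMM factors (2.75), and edgeR gave an unadjusted p of 0.129.

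The remaining HIF targets had values spread to both sides of culture. Log2 ratios were -1.54 for the oxygen sensor EGLN1, -1.40 for P4HA1 and -0.69 for P4HA2, which hydroxylate collagen, and -1.57 for HILPDA, which restrains the breakdown of lipid droplets. They were 0.15 for ANKRD37, 0.53 for the histone demethylase KDM3A, 0.14 for the MYC antagonist MXI1 and -0.36 for CA9, the carbonic anhydrase on the cell surface. Mouse 5541 had the highest mean of KDM3A, at 56.2, P4HA1, at 121, P4HA2, at 114, and ANKRD37, at 26.3, while mouse 5549 had the lowest KDM3A, P4HA1, ANKRD37 and MXI1. CA9 had reads in 8 of 37 CTCs (21.6%, interval 9.83% to 38.2%) and 1 of 6 cultured cells, and other genes cover 35.7% of its exonic bases, 55.8% of those of EGLN1 and 40.4% of those of ANKRD37. HIF1A itself had means of 392, 143, 107, 112 and 263 against 205 in culture with a range from 10.3 to 331, a log2 ratio of -0.01 ± 0.82. It was 0.71 ± 0.85 with CPM, and neither differed from 0 by more than the spread between mice. Relative to the all-gene median the HIF1A ratio was 1.19, and 1.15 with CPM, which exceeded that spread.

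As a share of all reads on genes, the 19 glycolytic enzymes took 3.34% ± 0.449 (SD, n = 5 mice) in CTCs and 3.43% in culture, with cultured cells from 2.46% to 4.59%. By mouse the share was 3.49%, 3.44%, 3.96%, 3.05% and 2.79%, all within the range of the cultured cells. Single CTCs ranged from 0.538% in 5549-6 to 7.38% in 5545-6, with 9 below and 6 above all cultured cells. The 15 HIF targets took 0.0699% ± 0.0306 in CTCs and 0.105% in culture, with cultured cells from 0.0646% to 0.152%, and mice 5542, 5545 and 5549 lay below that range. The 5 transporter and switch genes took 0.0292% ± 0.0123 and 0.0708%.

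Of the 8 CTCs with under 2% glycolytic reads, 7 had more than 10% of reads on mitochondrial genes, and no other CTC exceeded 10%, limits set after the values were seen. These 7 are 5549-6, 5549-2, 5546-c2, 5546-s7, 5546-s9, 5546-s1 and 5546-c10. In the cultured cells mitochondrial genes took 4.05% to 5.74%. CTC 5546-s7 had 23.9% mitochondrial and 1.44% glycolytic reads, and 5549-6, at 10.1% mitochondrial and 0.538% glycolytic reads, also had the most erythroid reads, at 1.59%, and the fewest LM2 marker reads. Across 37 CTCs the Spearman correlation of glycolytic with mitochondrial share was -0.38, and with erythroid share -0.46. In mouse 5545 these were -0.58 and -0.27. In mouse 5546 they were -0.23 and 0.08 over the 9 libraries named with c, and -0.71 and -0.83 over the 8 named with s. Shares of the same library are bound to a common total, and the part of RNA quality or of blood RNA was not tested. Without these 7 CTCs the glycolytic share was 3.87%, a rise that follows from their own low shares. The counts of enzymes, HIF targets and transporter genes that met the rule were then 4, 3 and 1.

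**Figure D4:**
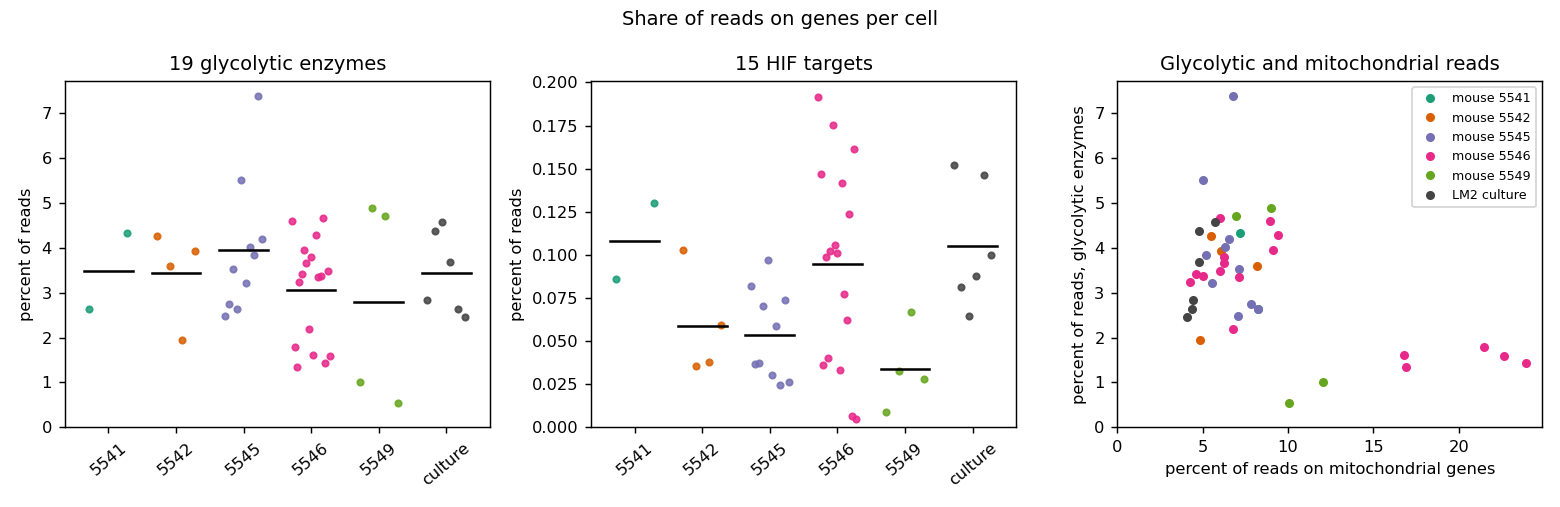
Percent of reads on genes taken by the 19 glycolytic enzymes and by the 15 HIF targets, by mouse and in culture, and glycolytic against mitochondrial percent. Each point is 1 cell and each bar the mean of its group, and the 7 CTCs with over 10% mitochondrial reads all lie under 2% glycolytic reads.

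Glycolytic enzymes varied together from CTC to CTC. Among the 10 enzymes detected in at least 36 CTCs, the median Spearman correlation over 45 pairs was 0.54 on the deposited scale and 0.42 with CPM. Over all pairs of 859 genes with the same detection it was 0.12 and 0.03, and those genes were not matched on abundance. The highest enzyme pair on the deposited scale was TPI1 with ENO1 at 0.81. It was followed by GAPDH with ENO1 at 0.76, ALDOA with ENO1 at 0.75 and ALDOA with GAPDH at 0.75. With CPM the highest was TPI1 with GAPDH at 0.69, and GAPDH with ENO1 was at 0.60. The 5 HIF targets detected in at least 30 CTCs had a median of 0.27 over 10 pairs, and 0.25 with CPM. Enzyme with HIF target had a median of 0.25 over 50 pairs, and 0.15 with CPM. Neither has a background of all genes at that detection. The points are 37 cells that share mice, libraries and depth. Glycolytic and HIF target shares had a correlation of 0.40 over all CTCs, 0.69 in the 17 of mouse 5546 and 0.04 in the 10 of mouse 5545. Within mouse 5546 it was 0.45 in the 9 libraries named with c and 0.86 in the 8 named with s. These differences were not tested. The number of HIF targets detected per CTC, 4 to 14, had a correlation of 0.73 with the number of genes detected.

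Mouse 5546 has 9 libraries named with c and 8 named with s, a difference not explained in the sources used here, and libraries with c had more genes detected, with a median of 9670 against 6454. Medians in c and s were 5201 and 3559 for LDHA, 115 and 28.5 for PFKP, 40.3 and 0.753 for HK1, 9.72 and 0 for PDK1, and 264 and 523 for GPI. Like GPI, GAPDH was higher in s (9399 and 14758), as were SLC16A3 (34.1 and 272) and NDRG1 (18.5 and 29.3). Without the s libraries, all genes that met the rule kept it except VEGFA.

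Related genes from lists were read the same way, beside the 25.1% of all genes called lower. Among pentose phosphate genes, TKT, a transketolase, was lower by the rule on the deposited scale (log2 ratio -2.79) and with CPM, TALDO1 was lower on the deposited scale (-1.84), and PGLS was at -0.23. Of 22 other glycolysis and pyruvate genes that reached the minimum, 11 were lower, and with CPM 3 of 21, beside 8.72% of all genes, with LDHD (-3.63), PDHX (-2.68) and TIGAR (-2.66) lowest and MPC1 (-1.15), PDP1 (-0.78) and BPGM (-0.46) highest. The median of these 22 was -1.87, beside -1.20 for all genes. Among the 11 are DLD, DLAT and PDHA1 of the pyruvate dehydrogenase complex and MPC2 of the mitochondrial pyruvate carrier.

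Of 13 other HIF pathway regulators, CUL2, EPAS1 and HIF1AN were lower by the rule, at -2.27, -2.25 and -1.95, while CITED2, VHL and EP300 had the highest ratios at 0.03, 0.31 and 1.11. With CPM none of 12 met the rule. Of 28 other HIF targets, VLDLR (-2.59), LOXL2 (-2.55) and INSIG2 (-1.45) were lower and none higher by the rule. With CPM, VLDLR was lower and PNRC1, a nuclear receptor coactivator, was higher among 26. TFRC was at -2.35. The 3 highest, STC1 (3.32), HMOX1 (3.27) and ANGPTL4 (1.85), did not meet the rule. STC1, a secreted glycoprotein, had means of 8190, 1083, 941, 12.4 and 594 against 215 in culture, so that mouse 5546 lay below culture and the others above. HMOX1, heme oxygenase, had 139 in mouse 5549 and 0 to 13.7 in the others against 2.65, and ANGPTL4 had 909 in mouse 5541 against 65.9. The median of this list was -0.73, above that of all genes, and that of 69 nuclear respiratory chain genes was -0.59, with 5 lower by the rule and none higher. With CPM the median of these 69 was 0.15, none was lower, and ATP5F1E and COX6B1 were higher. In the respiratory list NDUFS1 (-2.25), SDHA (-2.01) and SDHD (-1.87) were lowest and COX6A1 (0.18), ATP5F1E (0.68) and COX6B1 (0.70) highest.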

How the data were processed

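Single-cell RNA-seq values of 37 CTCs from 5 mice and of 6 cultured LM2 cells were used, and 4 further samples had no column and were not analysed here. The deposited values are a signal, the reads counted per gene over the size factor of the cell from DESeq2 1.42.1, which the authors computed after alignment with STAR 2.7.10a to GRCh38 and GENCODE release 38 with uniquely mapped reads and no strand. The submitters' processing notes name both tools. Whole reads were recovered with the smallest nonzero value of each cell as the unit (100% of values within 0.001), and 0 columns of values were left unused. Reads carry no molecular identifiers, so exact intervals cover counting error only.

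Names came from GENCODE release 44 and matched 25590 identifiers. Groups came from the labels. Separate cells of a mouse were averaged, and nothing states more than 1 culture. Batches could not be told apart from the labels, and the authors report that the number of amplification cycles differed between cells. The edgeR fit was the only test, since the culture is 1 sample, and a size rule served otherwise. CPM is each cell's recovered reads scaled to a common total. All 40 members were accounted for, with full values for those that met the rule and for the member of each set with the highest CTC mean, and the 3 extreme genes in each direction were named for other lists, except in the pentose phosphate list, from which not every result is reported here. Members, lists and rules were chosen with earlier results of these data known. Alternatives covered fold, minimum, pseudocount, scaling, averaging, depth and left-out cells or mice, and the removal of CTCs over 10% mitochondrial reads was chosen after seeing the data. Calculations used Python 3.11.15, numpy 2.4.6, pandas 2.3.3, scipy 1.17.1, R 4.3.3 and edgeR 4.0.16, and the steps were checked on simulated data.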

Additional observations from a re-analysis of the deposited data

Results flagged for a closer look

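Over 48 groups of values tested, 3 held a mouse or cell far from the others by Dixon's criterion, which chance gives in about 1 of 20 groups. All 3 were mouse means compared on a log scale. PKM had a mean of 2654 in mouse 5541, with 2 CTCs, against 725 to 977 in the other mice. ENO2 had 123 in mouse 5542 against 50.1 to 63.9 in the others. EGLN3 had 4.60 in mouse 5545 against 0 to 0.406, and that mean rests on few cells, since 3 of 37 CTCs had any read of it.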

How the results depend on the processing

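The count of members lower by the size rule was 10, and no alternative called a member higher. It became 1 at a fold of 4, 6 with a pseudocount of 8, 3 with CPM and 2 with TMM factors. The share of all genes called lower was 25.1% and became 5.31%, 17.7%, 8.72% and 4.42% in that order. At a fold of 1.5 that share was 39.3%, and with a mouse or a cultured cell left out it was 21.6% to 30.1%. The 4 glycolytic enzymes became 7 at a fold of 1.5, 0 at a fold of 4, 2 with a pseudocount of 8, and 1 with CPM or TMM factors. The 4 HIF targets became 1 at a fold of 4, 2 with a pseudocount of 8 or CPM, and 1 with TMM factors. SLC2A1 and SLC16A3, the 2 transporters called, became 0 at a fold of 4, with CPM and with TMM factors, and 1 with the mean of log2 values or without CTCs over 10% mitochondrial reads, an alternative chosen after seeing the data. With a mouse or a cultured cell left out, members lower numbered 7 to 13 (7 without LM-P4, 13 without mouse 5541), glycolytic enzymes 2 to 6 (2 without LM-P4, 6 without mouse 5541), HIF targets 3 to 5 and transporters 1 to 3 (1 without LM-2 or LM-3, 3 without mouse 5546). A left-out mouse, a fold of 1.5 or no minimum can only keep or add calls under this rule. These settings therefore do not test a call, though they count among the 25 alternatives that follow. ADM was lower by the rule in 25 of 25 alternatives to the rule, PFKP in 24, SLC2A1 and ERO1A in 22, and none of the 10 changed sign, also in edgeR, where none was called. The median log2 ratio relative to all genes, 0.12 for glycolytic enzymes, was -1.07 without a minimum, which lets in mostly genes near 0, 0.52 with medians over cells, and 0.38 with the mean of log2 values or without CTCs over 10% mitochondrial reads. For HIF targets it was -0.18, and -1.33 without a minimum, 0.28 with TMM factors and 0.70 with medians over cells, so its sign depends on the setting and the cause was not tested. The glycolytic share of CTCs, 3.34%, was 3.87% without CTCs over 10% mitochondrial reads, all of which had under 2% glycolytic reads, so it could only rise. edgeR called 27 genes without a filter on low counts and 0 to 1 with a mouse left out (1 without mouse 5545), and no member in any fit. No paired analysis was possible because numbers in library names only name cells and the culture is 1 sample.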
